A study of Malus domestica with 2 samples.

Results

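Gene models annotated as histones, cyclins or microtubule proteins were examined in 2 kinds of apple pedicel, the stalk of a single fruit, taken from the centre or the side of a fruit cluster. A gene model was a member when its annotation in the deposited whole-gene table or on either deposited sheet of differing genes contained histone, nucleosome, cyclin, proliferating cell, kinesin or tubulin. It also needed at least 1 counted sequence over both libraries or an entry on a sheet. The words matched 533 of 63541 gene models, and 191 became members, of which 180 had a sequence and 11 entered through a sheet alone. The other 342 matches had no sequence and no sheet entry. Just inside the limit lay 82 members with exactly 1 sequence, and just outside it were those 342 with 0. The members were thus selected on their counts and on the authors' sheets, so their totals and sheet entries are given as a description.

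Both groups were pedicels of the cultivar Saika, which the title calls self-abscising. The first is the central pedicel and the second the lateral pedicel, with 1 library per group, sequenced from mRNA on a Roche GS-FLX pyrosequencer. The labels give no treatment, age or number of trees. No difference has a replicate check, and each test on counts compares 2 libraries, not 2 kinds of pedicel. In whole pedicels, fewer cells of a type and less RNA per cell cannot be told apart. The central library held 18483 and the lateral library 18368 mapped sequences, which per the file header are contigs, so a count is not a number of reads. By the words fixed for them, genes of green tissue held 25 central and 26 lateral sequences (33 of 101 matched models with a sequence), xylem and secondary wall genes 11 and 16 (13 of 72), phloem genes 3 and 2 (3 of 3) and heat shock genes 112 and 104 (95 of 249).

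Histones are the proteins around which DNA is wound in nucleosomes, with core histones forming the spool and linker histone H1 binding outside it, and cells make most of them while they copy their DNA. Cyclins switch on their partner kinases at set points of the cell cycle, D-type before DNA synthesis and B-type at mitosis. Tubulins build the microtubules of the spindle and of the plant cortex, along which kinesins move. In a fruit stalk these genes are used as signs of dividing cells, although microtubules also serve cells that only expand.

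The members fell into 74 models of the histone group, 97 of the cyclin words and 20 of the microtubule group. The annotation limits this grouping. The InterPro name Cyclin-like F-box covers 51 members, and F-box proteins are substrate receptors of ubiquitin ligases and not cyclins. A further member, MDP0000890680, is a Ribosome recycling factor that was found through the letters of its name alone, with 1 sequence in each library. For 35 members the histone fold is the one ground for the match, a fold shared by histones and by transcription factor subunits. The authors' sheets, headed CP and LP for the central and lateral pedicel per the file header, list 1.33% and 1.17% of all gene models. Of the 30 members on a sheet, 16 on CP and 14 on LP, 6 carry a sheet annotation of another family.

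Matched models had a sequence about as often as all models, 33.8% against 28.9%. None of the 24 models that the whole table names as a histone type (H1/H5, H2A, H2B, H3 or H4) had a sequence (0 of 24). The same was true of the 8 models annotated Cyclin D, the 3 annotated G2/mitotic-specific cyclin A and the 3 annotated PCNA, the sliding clamp of DNA replication. The histones and cyclins counted below therefore carry broader names, such as Histone core or Cyclin-like. A count of 0 allows a share of up to 0.0162% of the central and 0.0163% of the lateral library, taken as the worth of 3 sequences.

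Members of the histone group held 68 central and 55 lateral sequences. That is 0.368% of the central library (95% exact Clopper-Pearson interval 0.286% to 0.466%) and 0.299% of the lateral library (0.226% to 0.390%). Members found by the cyclin words held 99 and 90 sequences, 0.536% (0.436% to 0.652%) and 0.490% (0.394% to 0.602%). Members of the microtubule group held 13 and 20, 0.0703% (0.0375% to 0.120%) and 0.109% (0.0665% to 0.168%). The intervals of the libraries overlapped in each of these groups. These intervals hold counting error alone and would be too narrow where 1 transcript gave several contigs.

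**Figure D1:**
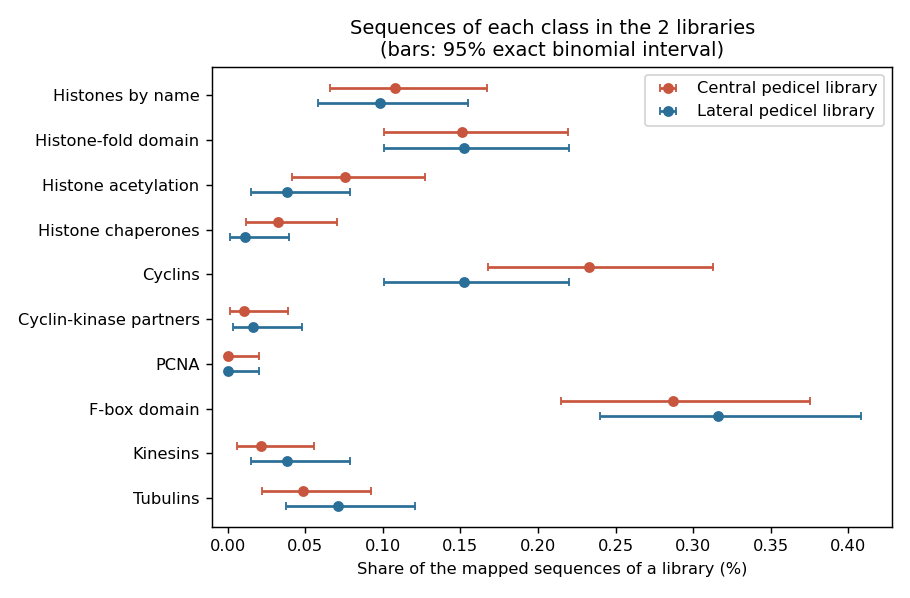
Share of each library's mapped sequences, in percent, held by each class of members, with the central library in red, the lateral in blue and bars for the 95% exact binomial interval. The intervals overlap in every class drawn; cyclins have 43 central and 28 lateral sequences, and F-box genes 53 and 58.

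No member reached 10 sequences, the minimum set for the Fisher exact test. The 24 gene models that did are outside the members, and 0 of them (0%) were called at an adjusted p under 0.05 and 2-fold. One of the 24 had an unadjusted p under 0.05 by the Fisher exact test (1 of 24), while none did (0) by the negative binomial exact test of edgeR. Without a minimum, the smallest unadjusted Fisher exact p of any member was 0.248, every adjusted p was 1, and 0 of 18337 gene models were called. With 5 sequences all in the central library the Fisher exact p is 0.0625 and with 6 sequences 0.0312, and 3 members had 6 or more. Splits all in the lateral library give a lower p, since the library totals differ. With 2 sequences the Fisher exact p is 0.248 when both are lateral and 0.5 when both are central. With counts of contigs this low, a difference in single members was not detectable.

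Described by fold instead, with 0.5 added to each count, 54 of the 180 members with a sequence (30.0%) were at least 2-fold higher in the central library, where 28.3% of all gene models with a sequence were. For the lateral library the figures were 47 members (26.1%) and 27.9% of all gene models. With counts this low, such a call nearly always means a sequence in one library and none in the other. The central count rests on the settings: with 1 added to each count it was 8, beside 47 in the lateral library, and at a 3-fold threshold 7, beside 45. The median log2 ratio of lateral over central was 0.01 for the members and 0.01 for all gene models with a sequence. Of the members with a sequence, 70 (38.9%) had more central sequences, 60 (33.3%) more lateral and 50 (27.8%) as many in each. Among all gene models with a sequence these shares were 36.2%, 35.4% and 28.4%. In the authors' deposited table, Kal's Z-test gives an FDR under 0.05 to 129 members (71.7%) and to 67.6% of all gene models with a sequence, and 82 of those 129 rest on a single sequence.

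**Figure D2:**
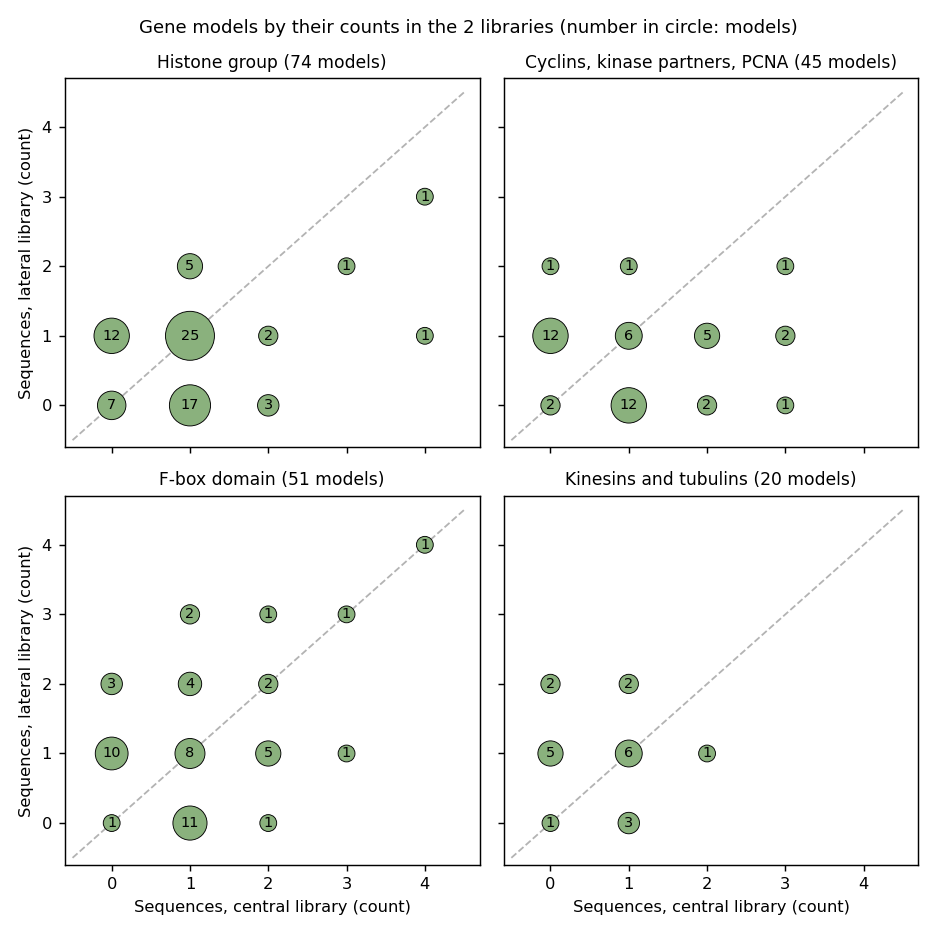
Number of gene models at each pair of counts, central on the horizontal and lateral on the vertical axis, with the dashed line marking equal counts. Models with 0 or 1 sequence in a library fill most of each panel, and no model exceeds 4 sequences in either library.

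Core and linker histones, here the members that an annotation names as histones, numbered 20, of which 19 had a sequence. They held 20 central and 18 lateral sequences, a lateral share of 47.4% (95% exact interval 31.0% to 64.2%). Of the 19, 11 had equal counts (57.9%), 5 had more central (26.3%) and 3 more lateral sequences (15.8%). All gene models with a sequence had 28.4%, 36.2% and 35.4%. These models were short, with a median of 447 bases against 1353 bases for all gene models with a sequence. Per length their levels were accordingly high, with a median of 121 RPKM in the central and 109 RPKM in the lateral library, where all gene models with a sequence had 36.6 and 36.7 RPKM. RPKM divides each count by the gene model's length and by its library's total. A single sequence on a model of this length gives about 121 RPKM, as for MDP0000255229. Built on counts of contigs, RPKM here does not measure reads per transcript.

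The most counted histone was MDP0000336462, a histone superfamily protein matched to AT5G59690.1, with 3 central and 2 lateral sequences (432 and 290 RPKM). Both Histone core models MDP0000332388 and MDP0000183187 had 1 central and 2 lateral sequences, and none of those of MDP0000183187 mapped uniquely. The lateral library was the higher one for this pair and the central one for MDP0000336462. Copies of the same size are common among these models, since 4 were 447 and 4 were 411 bases long. Sequences can be split between such copies, so single histone models are uncertain.

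The sheets hold 844 CP and 741 LP entries in all. All 8 histones by name that the authors listed as differing were on the sheet headed CP, and none (0) was on the LP sheet. This split covers only entries described as histones. An LP entry with the gene ontology term nucleosome, MDP0000320059, is described as a winged-helix protein and is not counted here. The 8 were linker histone H1-3 (MDP0000477621), histones H2A 10 (MDP0000334368) and H2A 12 (MDP0000205983), and 5 entries described only as histone superfamily protein. Their FDR values in the authors' deposited table ran from 0 to 4.56e-06. Of the 5, MDP0000255229 and MDP0000361591 share the Arabidopsis match AT3G45980.1, so they are copies of 1 kind of histone. The counts of the whole table were nearly even for the same 8 models, 9 central and 7 lateral sequences. Over all sheet entries, 190 on CP and 159 on LP had no sequence in either library. Those listings cannot come from these counts, so the counts are no check of the sheets.

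MDP0000255229 had 1 central and 0 lateral sequences, and its copy MDP0000361591 had 1 in each library. MDP0000259057, MDP0000364547, MDP0000334368 and the linker histone MDP0000477621 also had 1 in each. MDP0000205983, histone H2A 12, had none. Thus 2 of the 8 had more central sequences, 5 had as many in each library and 1 had no sequence. The 12 histones by name on neither sheet held 11 central and 11 lateral sequences. Beside this, heat shock genes had 8 entries on the CP and 2 on the LP sheet and genes of green tissue 9 and 20, and their part in the split of the histone entries was not tested.

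**Figure D3:**
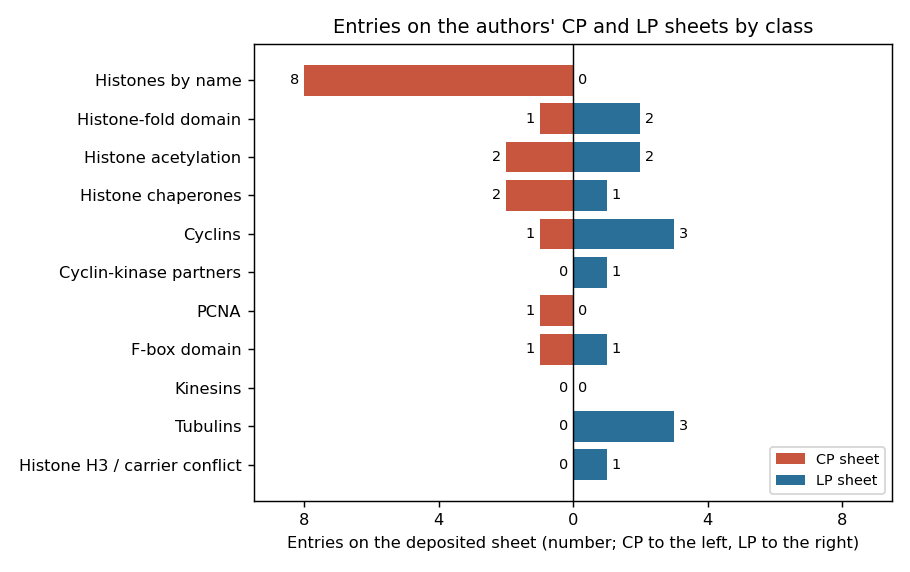
Number of entries of each class on the deposited CP sheet (red, left) and LP sheet (blue, right). Histones by name have 8 entries on CP and 0 on LP, and the tubulin class 0 and 3. In the tubulin class, MDP0000159598 is described by a name that also covers FtsZ proteins. The LP entry MDP0000320059, with the gene ontology term nucleosome but another description, is not drawn.

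Models known only by the histone fold held 28 central and 28 lateral sequences over 32 models with a sequence. The most counted member of the whole histone group was one of them, MDP0000238589, with 4 central and 3 lateral sequences. They were 0.0216% (95% exact interval 0.0059% to 0.0554%) and 0.0163% (0.00337% to 0.0477%) of the libraries, and the Fisher exact p was 1. On a model of 369 bases this gave 586 and 443 RPKM, rank 3 and rank 15 among all gene models of the table. MDP0000324583 had 1 central and 2 lateral sequences. Uniquely mapped sequences made up 69.6% in this class, against 89.3% over all gene models, and 10 of its 32 models with a sequence had none.

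On the sheets, 3 models of this class were described as subunits of transcription factors, while 4 other models with the fold were described as histones and are counted above. MDP0000251947, the TATA binding protein associated factor 21kDa subunit, was on the CP sheet, and MDP0000324584 and MDP0000595519, nuclear factor Y subunits B13 and B11, were on the LP sheet. All 3 had no sequence in either library. The whole table calls MDP0000313905 a Histone H3, but it is 1380 bases long and the LP sheet calls it a mitochondrial substrate carrier. It had no sequence, and its deposited log2 ratio of -4.83 is left out of the histone entries above.

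Enzymes that add or remove acetyl groups on histones, and their complex subunits, held 14 central and 7 lateral sequences over 11 models. Acetylation loosens the hold of histones on DNA, and deacetylases reverse it. The widest gap was that of MDP0000315318, annotated as the Eaf6 subunit of the NuA4 histone H4 acetyltransferase complex, with 4 central and 1 lateral sequences (108 and 27.3 RPKM). The lateral share of its 5 sequences was 20% (95% exact interval 0.505% to 71.6%), with a Fisher exact p of 0.375. Of its central sequences 2 mapped uniquely. The other Eaf6 models, MDP0000284965 and MDP0000272058, had 2 and 1, and 1 and 1.

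Deacetylases were on both sheets. MDP0000261742, histone deacetylase 9, was on the CP sheet and had 1 central and 0 lateral sequences. MDP0000348722, histone deacetylase 15, was on the CP sheet with no sequence. MDP0000256797, histone deacetylase 2, was on the LP sheet with 0 central and 1 lateral sequences. MDP0000780720, histone deacetylase 8, was on the LP sheet although it had 2 central and 1 lateral sequences (94.2 and 47.4 RPKM). The sirtuin-type model MDP0000130759, of the NAD-dependent kind, had 2 central sequences and MDP0000145695, of the same kind, 1 lateral.

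Histone chaperones, which hand histones to new DNA, held 6 central and 2 lateral sequences over 5 models, a lateral share of 25.0% (95% exact interval 3.19% to 65.1%). On the CP sheet were MDP0000219093, an ASF1 like histone chaperone with 1 central sequence and no lateral one, and MDP0000135609, nucleosome assembly protein 1;2, with none. NAP1-related protein 2, MDP0000189373, was on the LP sheet and had 1 sequence in each library. The highest central count was that of MDP0000208675, a nucleosome assembly protein with 2 central and 0 lateral sequences.

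Cyclins proper, the class left without F-box genes and kinase partners, numbered 40 models, 39 with a sequence. Of these, 26 with 32 central and 19 lateral sequences are annotated only as Cyclin-like, so that they are cyclins is not certain. The whole class held 43 central and 28 lateral sequences. Its lateral share was 39.4% (95% exact interval 28.0% to 51.7%), against 49.8% of all counted sequences. Of the 39, 22 had more central and 12 more lateral sequences, 56.4% and 30.8%, where all gene models with a sequence had 36.2% and 35.4%. At least 2-fold higher were 16 in the central library (41.0%, background 28.3%) and 11 in the lateral (28.2%, background 27.9%). No test over the list was made, because its members were chosen with these counts in view.

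The cyclin domain model MDP0000617016 had 3 central and 0 lateral sequences, all uniquely mapped, and was with the Eaf6 model MDP0000315318 the only member to differ by 3 or more sequences (2 members). MDP0000176105 and MDP0000937401 each had 3 central and 1 lateral sequences, and MDP0000234147 had 3 and 2. MDP0000675622, annotated as a transcription regulator cyclin, had 2 and 1, as had MDP0000155259. The order was the opposite for MDP0000123927, with 1 and 2. The whole table names none of these by cyclin type, so it is not known which of them act in the cell cycle. Cyclin levels above 0 ran from 28.2 to 152 RPKM.

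Of the 4 cyclin entries on the sheets, which hold 844 CP and 741 LP entries in all, 3 were on LP. These were the B-type cyclins, which drive entry into mitosis, and they had 1 central and 2 lateral sequences in all. MDP0000241994 and MDP0000223631 are both matched to cyclin B1;4 (AT2G26760.1). The former had 1 sequence in each library and a deposited log2 ratio of -2.93, and the latter had 0 central and 1 lateral. MDP0000133861, cyclin B2;3, had no sequence. The CP entry was cyclin p4;1, MDP0000257591, with 1 central and 0 lateral sequences (87.1 and 0 RPKM).

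Partners of the cyclins were rarely counted, with 2 central and 3 lateral sequences over 4 models. MDP0000258414, an inhibitor of cyclin-dependent kinases, which holds back the cell cycle, was on the LP sheet with 1 sequence in each library (91.1 and 91.7 RPKM). The kinase regulatory subunit MDP0000155540 had 1 lateral sequence. Proliferating cell nuclear antigen 2, MDP0000125070, was on the CP sheet with an FDR of 1.61e-14 in the authors' deposited table, and had no sequence in either library.

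F-box genes found through their InterPro name held 53 central and 58 lateral sequences over 50 models with a sequence, more than the cyclins themselves. MDP0000264736 had 4 in each library, the most of any member, and MDP0000306587 had 3 in each. MDP0000585849 had 1 central and 3 lateral sequences, and MDP0000184528 had 3 and 1. On a sheet were tubby like protein 10 (MDP0000122158, CP, no sequence) and a kelch repeat protein (MDP0000843303, LP, 1 central and 2 lateral).

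**Figure D4:**
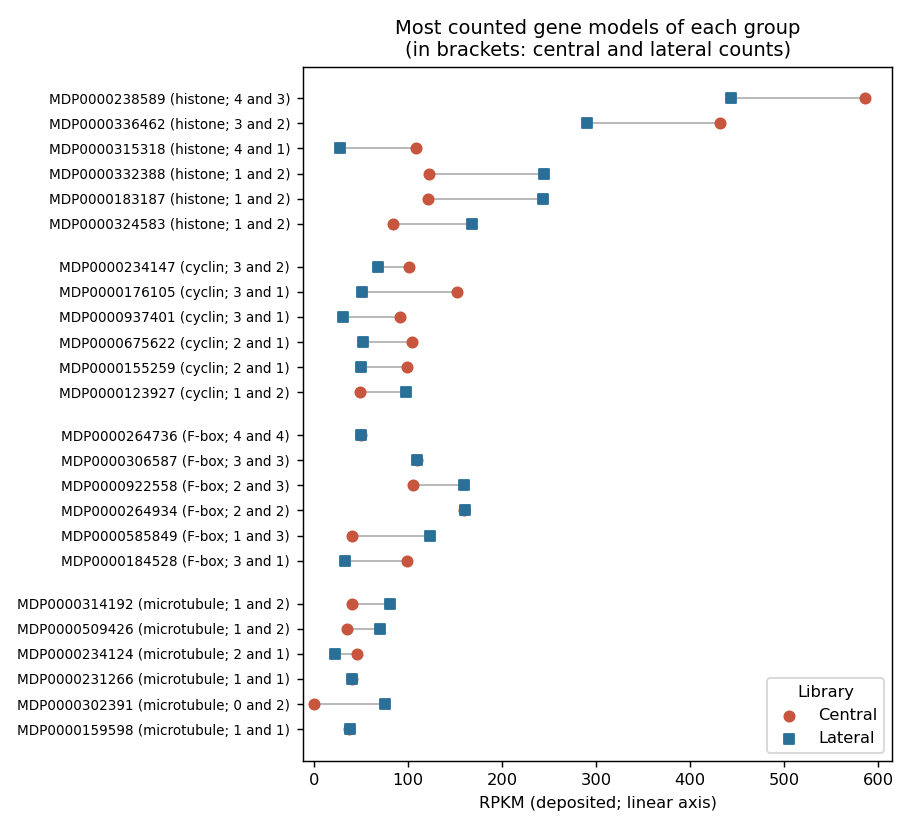
Deposited RPKM of the 6 most counted gene models of each group in the central (circles) and lateral (squares) library, with their counts in brackets. MDP0000238589 and MDP0000336462, both short models, are highest at 586 and 432 RPKM in the central library, and each change of 1 sequence moves such a model far along the axis.

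Models of the tubulin class held 9 central and 13 lateral sequences over 12 models, a lateral share of 59.1% (95% exact interval 36.4% to 79.3%). The whole table names 7 models with a sequence Tubulin/FtsZ, C-terminal and 4 Tubulin/FtsZ, GTPase. These names also cover the FtsZ proteins of plastid division, so that all are tubulins is not certain. More lateral sequences were counted in 6 of the 12 models (50%, background 35.4%) and more central in 3 (25%, background 36.2%). MDP0000302391, with the Tubulin/FtsZ GTPase domain, had 0 central and 2 lateral sequences. MDP0000509426 had 1 and 2, and MDP0000234124 had 2 and 1. Of the sequences of tubulins 63.6% mapped uniquely, the lowest share of the classes with more than 1 model, and 4 of 12 models had no unique one.

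The 3 entries of the tubulin class were all on the LP sheet, where the sheets hold 844 CP and 741 LP entries in all. Only tubulin alpha-5 and tubulin beta 8 among them are described as tubulins. MDP0000314192, tubulin alpha-5, had 1 central and 2 lateral sequences, none of them unique. MDP0000235104, tubulin beta 8, had no sequence and a deposited log2 ratio of -2.63. MDP0000159598, matched to AT3G52750.1, is described as a Tubulin/FtsZ family protein, so its name does not settle that it is a tubulin. Its counts were 1 and 1, and its deposited ratio was -3.02.

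Kinesins held 4 central and 7 lateral sequences over 7 models, with a median length of 3336 bases. Their levels above 0 ran from 13.5 to 79.2 RPKM, the highest on the shortest model, MDP0000201093, of 687 bases. MDP0000320717, a kinesin-related protein, had 0 central and 2 lateral sequences, both unique, and is on neither sheet. Its deposited log2 ratio was -4.63. MDP0000165453, MDP0000282836 and the MyTH4 domain model MDP0000301930 had 1 sequence in each library.

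Deposited ratios existed for 5 members, all negative, and 4 of the 5 are LP entries. The file's first line states lateral over central, yet all 113 LP genes with a ratio are negative and all 78 CP genes positive, so the sign is printed as deposited and is not read as a direction.

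The 16 CP members held 12 central and 7 lateral sequences, with 5 higher in the central library, none (0) higher in the lateral, 5 equal and 6 without a sequence. The 14 LP members held 8 and 11, with 1 higher in the central library, 4 higher in the lateral, 4 equal and 5 without a sequence. Counts thus differed in the direction of the sheet name in 9 of 30 entries and against it in 1, MDP0000780720. Over all entries, 287 of 844 on CP had more central sequences and 233 of 741 on LP more lateral. The members' 9 of 30 is near this background. Against the sheet name went 137 of 844 on CP and 116 of 741 on LP, a larger part than the members' 1 of 30. Without a sequence were 190 of 844 CP and 159 of 741 LP entries. All CP entries together held 742 central and 541 lateral sequences and all LP entries 538 and 693.

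Other genes of cell division, counted by words on models outside the members, held 36 central and 41 lateral sequences over 39 of 119 models. At least 2-fold higher in the lateral library were 12 of the 39 (30.8%, background 27.9%), and 9 in the central (23.1%, background 28.3%). MCM helicase genes, which unwind DNA for replication, held 6 and 5 sequences, DNA polymerases 6 and 7, replication factors 2 and 1, and ribonucleotide reductase genes, which supply the building blocks of DNA, 4 and 6. Topoisomerases held 3 and 6, condensin and cohesin genes 1 and 4, microtubule-associated genes 4 and 2, and dynamin and phragmoplast genes 10 and 10. Words for mitosis and the spindle found 8 models with no sequence, and those for E2F, retinoblastoma and aurora found none (0).

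These lists had 2 CP and 3 LP entries. On LP were MDP0000142758, an MCM family protein with 1 central and 0 lateral sequences, and MDP0000014856, ribonucleotide reductase 1 with 1 and 2. The third LP entry, MDP0000268677, had no sequence and is a ferritin/ribonucleotide reductase-like protein, a name that also covers the iron store ferritin. On CP were MDP0000413972, of that same kind and also without a sequence, and Dynamin related protein 4C (MDP0000613462), with 0 central and 1 lateral. Models found by the word actin, taken as a contrast from the cytoskeleton, held 13 central and 19 lateral sequences, with 2 CP and 3 LP entries. On LP, actin-11 (MDP0000157737) had 1 and 3 sequences. MDP0000163222, an actin binding protein on LP, had 2 and 6. The other entries were an actin-related protein on LP and actin depolymerizing factors on CP.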

How the data were processed

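Counts of all and of uniquely mapped sequences per library were deposited for every gene model, beside RPKM and gene length. Its column names call the counts reads and the input contigs. The RPKM deposited by the authors equals the count over length and library total. The p-value and FDR columns of Kal's Z-test, and those of the CP and LP sheets made with NOISeq, are the authors', per the file headers. The log2 ratios deposited by the authors cover 215 genes. For the aligner and the gene model release, the choice is not given in the sources used. A further 12 columns of library values were not used. The reference gene table held 0 of the members' identifiers, and coordinates and sequences are therefore left out.

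Gene models with at least 10 sequences over both libraries were tested with a two-sided Fisher exact test and Benjamini-Hochberg adjustment, called at an adjusted p under 0.05 and 2-fold. With 1 library per group edgeR's quasi-likelihood fit has no residual degrees of freedom, so its negative binomial exact test (edgeR 4.0.16, R 4.3.3) took assumed coefficients of variation, 0.2 and 0.4. The Fisher procedure was tested on simulated data. Ratios of these counts are log2 of lateral over central, with 0.5 added. Classes follow the sheet annotation where it holds a searched word, otherwise that of the whole table.

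Members and word lists were chosen with earlier results of these data known. Named are members on a sheet or with a deposited ratio, up to 6 most counted ones per group, ties broken by RPKM, and those differing by 3 or more sequences. Others, among them F-box, Eaf6, deacetylase, chaperone and kinesin models, were named after their values were seen. Alternatives covered the minimum, fold, pseudocount, unit, uniqueness and annotation. Tools were Python 3.11.15, numpy 2.4.6, pandas 2.3.3, scipy 1.17.1 and matplotlib 3.10.9.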

Additional observations from a re-analysis of the deposited data

How the results depend on the processing

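Of 35 alternative values, 28 stayed the same and 7 moved, and 4 were added after seeing the data. A share moved if it left the main value's counting interval, and a count if it changed by over 1.5 times. A change of direction was not labelled. The count of called gene models was 0 in all settings run. Restricting the cyclin words to cyclins proper moved the lateral share of sequences from 47.6% to 39.4%, since F-box genes alone gave 52.3%. With a pseudocount of 1, members at least 2-fold higher in the central library numbered 8, and 47 in the lateral, since a lone sequence then sits at 2-fold before the unequal library totals are applied. A 3-fold threshold gave 7 central, beside 45 lateral, for the same reason. In both settings the larger number was thus lateral, where the main setting had 54 central and 47 lateral. Among the 40 members with 3 or more sequences, 5 were at least 2-fold higher centrally and 2 laterally. Sheet members with a sequence numbered 10 on CP and 9 on LP. Low counts limit every value, as no member exceeded 8 sequences. No replicate could be left out, and no paired analysis was possible because each group has 1 library.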

Other observations

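By gene ontology terms on the sheets, chosen after the data were seen, the term nucleosome marked 7 CP and 1 LP entries, 5 of these 8 being members. The other CP entries were a telomere repeat binding factor 1, MDP0000239354, with 3 central and 1 lateral sequences, and high mobility group A, MDP0000931380, with 1 and 1. The LP entry, MDP0000320059, is matched to AT2G30620.1 and also carries the term nucleosome assembly. It is described as a winged-helix DNA-binding protein, a fold that linker histones also have, and had 1 sequence in each library. The words searched did not find it, so the absence of histones by name from the LP sheet rests on how entries were described. The term microtubule marked 0 CP and 2 LP entries, both members, and DNA replication marked 1 CP and 3 LP entries, none of them members (0). Among these LP entries, MDP0000142758 and MDP0000014856 are already counted in the division lists above. The remaining one, MDP0000639265, is annotated as a magnesium chelatase subunit.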
